A study of Mus musculus with 27 samples.

Results

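The RNAs described here are 6 short, folded noncoding RNAs, chosen by gene symbol: Rn7sk, Rmrp, Rpph1, Vaultrc5, Rprl3 and Terc. They are 6 of the 37332 genes in the deposited count table, and no measured value enters the rule. Ribosome-depleted RNA of mouse cells was sequenced in 27 libraries, with 3 biological replicates of each of 3 subcellular fractions (chromatin-associated RNA, soluble nucleoplasm and cytoplasm) in each of 3 cell types. The first cell type, mESC, was the embryonic stem cell line E14, grown on gelatin with LIF, a cytokine that keeps stem cells undifferentiated. The second, mNPC, was a neural progenitor line made in the laboratory and fed daily with EGF and FGF. The third, mCtx, was a primary culture of cortical neurons kept on poly-L-lysine for 5 days. The labels name no treatment or genetic change in any group. mESC and mNPC were each 1 cell line, and a primary culture can hold cells other than neurons.

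Rn7sk encodes 7SK RNA, which with the proteins Larp7, Mepce and Hexim1 holds the transcription elongation kinase P-TEFb inactive in the nucleus. Rmrp and Rpph1 encode the RNA subunits of the related ribonucleases MRP, which cuts ribosomal RNA precursors in the nucleolus, and P, which removes the leader of tRNA precursors, and Rprl3 is an RNase P RNA-like gene. Vaultrc5 encodes an RNA of vaults, large ribonucleoprotein particles of the cytoplasm, and Terc encodes the RNA template of telomerase. RNA polymerase III makes 7SK, RNase MRP, RNase P and vault RNA, while RNA polymerase II makes the telomerase RNA of vertebrates.

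The sequences below are GENCODE vM21 transcripts on the mm10 build, written as DNA from 5′ to 3′. Rn7sk is a gene of 331 bases at chr9:78175303-78175633 on the minus strand. Its first 120 bases are shown because they hold the 5′ hairpin that Hexim proteins bind, with its repeated GATC (GAUC in the RNA) in capitals. On the transcribed strand GATC occurred 3 times in the whole RNA, from bases 13, 42 and 64, and 67.5% of 17896 annotated transcripts of 200 to 450 bases held it.
Rn7sk, bases 1 to 120: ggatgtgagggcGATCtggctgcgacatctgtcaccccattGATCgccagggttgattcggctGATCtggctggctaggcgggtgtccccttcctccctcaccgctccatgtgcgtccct

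Rmrp is 271 bases long, at chr4:43492788-43493058 on the minus strand. Capitals mark 159 bases that lie under the span of Ccdc107 on the opposite strand, shown because the strand setting of the counting is not given in the sources used here. Ccdc107 had 245 to 1368 counts summed over the 3 libraries of a group, and Rmrp had 9142 to 557040 in single libraries. These counts do not show how reads of the shared bases were treated, which was not tested.
Rmrp, bases 1 to 271: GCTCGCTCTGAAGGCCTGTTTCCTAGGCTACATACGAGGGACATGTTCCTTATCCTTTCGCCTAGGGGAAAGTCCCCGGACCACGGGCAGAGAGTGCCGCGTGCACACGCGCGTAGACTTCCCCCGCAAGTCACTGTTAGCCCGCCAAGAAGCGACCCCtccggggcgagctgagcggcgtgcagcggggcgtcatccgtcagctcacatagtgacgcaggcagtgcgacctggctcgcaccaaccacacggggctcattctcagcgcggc

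Rpph1 (319 bases, chr14:50807449-50807767, minus strand) and Rprl3 (290 bases, chr8:3803069-3803358, minus strand) are shown together because they are related in sequence, while Rpph1 was counted in all 27 libraries and Rprl3 in those of mESC alone. Bases 1 to 257 of Rpph1 and 1 to 236 of Rprl3 aligned with 222 identical bases, 14 substituted bases and 21 gap bases, an identity of 86.4%. Capitals mark the bases that differ or face a gap. The longest run shared by the pair was 37 bases, and 0 of the 191 windows of 100 bases of Rprl3, the length of 1 sequencing read, occurred in Rpph1. Rprl3 was nearer to Rprl1 and Rprl2, with an identity of 92.1% to each.
Rpph1, bases 1 to 257: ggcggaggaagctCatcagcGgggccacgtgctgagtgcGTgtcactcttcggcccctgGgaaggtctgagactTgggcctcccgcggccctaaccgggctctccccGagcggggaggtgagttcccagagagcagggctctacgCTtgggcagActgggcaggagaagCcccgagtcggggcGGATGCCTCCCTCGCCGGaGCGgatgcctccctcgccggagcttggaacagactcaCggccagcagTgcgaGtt
Rprl3, bases 1 to 236: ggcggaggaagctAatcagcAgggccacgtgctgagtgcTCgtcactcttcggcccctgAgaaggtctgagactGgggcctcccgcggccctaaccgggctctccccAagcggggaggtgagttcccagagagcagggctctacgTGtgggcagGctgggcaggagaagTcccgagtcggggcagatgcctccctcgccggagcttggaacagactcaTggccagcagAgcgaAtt

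Terc is annotated with 423 bases at chr3:96414437-96414859 on the minus strand. RefSeq gives the gene 397 bases, at chr3:96414437-96414833, so the first bases printed here lie outside the RefSeq RNA. The template that telomerase copies into telomere repeats lies at bases 28 to 36 of the GENCODE transcript and is in capitals. These 9 bases occurred in 16 of the 17896 transcripts of 200 to 450 bases.
Terc, bases 1 to 120: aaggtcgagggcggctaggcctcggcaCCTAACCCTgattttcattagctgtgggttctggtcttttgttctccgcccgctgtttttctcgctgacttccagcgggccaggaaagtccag

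The content of G and C was 53.8% in Vaultrc5 and ran from 57.2% in Rprl3 to 67.1% in Rpph1 and Terc. The median of transcripts of 200 to 450 bases, a set longer than the annotated Vaultrc5, was 50.4%. TTTT, the run at which RNA polymerase III stops, was searched on the transcribed strand and had 0 matches in the annotated Rn7sk, Rmrp and Rpph1. Vaultrc5 held 1, Rprl3 2 and Terc 3, and 58.0% of transcripts of 200 to 450 bases held at least 1. The runs in Rprl3 began at bases 235 and 250 of the GENCODE transcript, and RefSeq gives that gene 235 bases. A run without a match says only that these letters are not in the annotated span.

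Library totals ran from 11249862 to 19871198 counts. Of 8 stem cell markers, Pou5f1, Zfp42, Dppa5a and Utf1 had 0 counts in mNPC and mCtx. In cytoplasm the 8 summed to 4256 to 4675 (CPM, counts divided by the scaled library size and multiplied to a common total) in mESC, 452.4 to 485.7 in mNPC, where Sox2 held most, and 49.93 to 56.91 in mCtx. The 8 neuron markers summed to at least 4290 CPM in mCtx libraries and at most 233.6 in mESC. In mNPC they summed to 1790 to 2109 in chromatin, 596.3 to 740.5 in nucleoplasm and 608.0 to 755.4 in cytoplasm. Neural progenitor markers (8 genes) summed to 5348 to 5996 CPM in cytoplasm of mNPC, 602.4 to 687.9 in mESC and 758.9 to 912.3 in mCtx. Oligodendrocyte markers (4 genes) summed to 618.4 to 658.2 CPM in cytoplasm of mNPC and 52.12 to 67.54 in mCtx. In cytoplasm of mCtx 4 astrocyte markers summed to 327.5 to 366.0 CPM, against 1402 to 1690 in mNPC. Cytoplasmic mRNAs (6 genes) summed to 527.5 to 2222 CPM in chromatin and 13005 to 28928 in cytoplasm. The nuclear RNA Malat1 was at 5910 ± 965.8 CPM (SD, n = 3) in cytoplasm of mCtx, against 1384 ± 156.1 in mESC and 1372 ± 50.3 in mNPC. Neat1, another nuclear RNA, was at 5.18 ± 1.11 CPM there, against 19.2 ± 10.7 in mESC and 1.64 ± 0.426 in mNPC. Mitochondrial genes took 2.01% to 29.8% of nucleoplasm counts. The 3 mESC libraries numbered 1 stood apart from their group (chi-square per degree of freedom 49.3 to 72.0, against 13.3 to 14.9 between replicates 2 and 3), as did the mNPC nucleoplasm libraries from each other (20.6 to 55.9). Values that change without such a library are given beside the result. In these bulk libraries fewer cells with an RNA and less RNA per cell cannot be told apart, and shares and fraction balances are of sequenced RNA, not amounts per cell.

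The 6 RNAs together took between 0.156% and 9.57% of a library. In cytoplasm they made up 5.24, 4.84 and 3.78% of counts in the mESC libraries, 7.31, 7.10 and 9.56% in mNPC and 5.51, 5.76 and 5.05% in mCtx. In chromatin they made up 2.13 ± 0.410% in mESC (SD, n = 3), 2.17 ± 0.229% in mNPC and 0.183 ± 0.0464% in mCtx. In nucleoplasm the shares were 3.51 ± 1.18%, 3.64 ± 1.17% and 0.357 ± 0.0167%. The 6 nuclear libraries of mCtx, at 0.156% to 0.375%, lay below all other libraries, of which the lowest held 1.74%. Rn7sk, Rmrp and Rpph1 carried nearly all of these counts. Rmrp led in chromatin of mESC (61.5% of the members' counts) and mNPC (68.7%), Rpph1 in cytoplasm of mESC (49.2%), and Rn7sk in cytoplasm of mNPC (49.4%) and mCtx (63.4%).

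**Figure D1:**
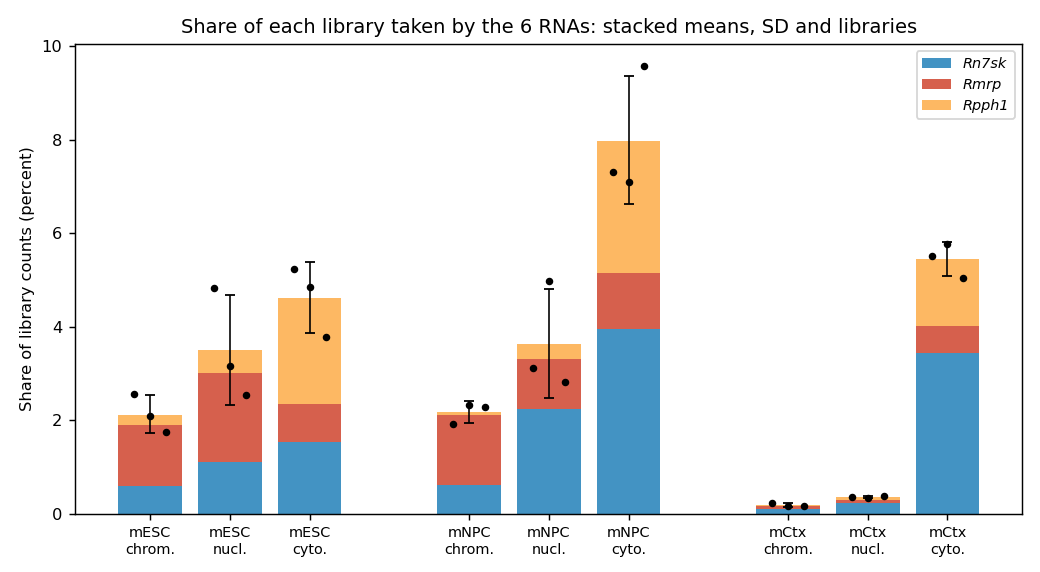
Share of library counts (percent, vertical axis) taken by the 6 RNAs in each cell type and fraction, with stacked bars for the group means of Rn7sk, Rmrp and Rpph1, points for libraries and error bars for the SD of the total. The mCtx chromatin and nucleoplasm libraries lie between 0.156% and 0.375%, and the mNPC cytoplasm libraries between 7.10% and 9.57%.

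Fractions were compared with the quasi-likelihood test of edgeR in a fit of 18249 genes, and an adjusted p (Benjamini-Hochberg) of 0.05 was the threshold. Most genes differ between fractions, so each count of members stands beside the share of all genes that passed. Chromatin against cytoplasm passed for 5 of 6 members in mESC (77.5% of all genes), 3 of 5 in mNPC (69.5%) and 4 of 5 in mCtx (73.3%), with 1 higher and 4 lower in chromatin in mESC and all lower in the other cell types. Nucleoplasm against cytoplasm passed for 5 of 6 in mESC (63.1%), 3 of 5 in mNPC (50.1%) and 4 of 5 in mCtx (58.2%). The split was 2 higher and 3 lower in mESC, 1 higher and 2 lower in mNPC and 0 higher and 4 lower in mCtx. Nucleoplasm against chromatin passed for 5 of 6 in mESC (66.3%), 3 of 5 in mNPC (66.1%) and 2 of 5 in mCtx (57.1%), all higher in nucleoplasm. These counts are near the share of all genes. The members' median log2 fold change of chromatin against cytoplasm was -2.89 in mESC, -2.86 in mNPC and -4.67 in mCtx, beside medians of all genes of 0.36, 0.06 and 0. With total-count scaling the split of passing members was 2 higher and 4 lower for chromatin against cytoplasm in mESC, 1 higher and 3 lower in mNPC, and 2 higher and 1 lower for nucleoplasm against chromatin in mESC.

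**Figure D2:**
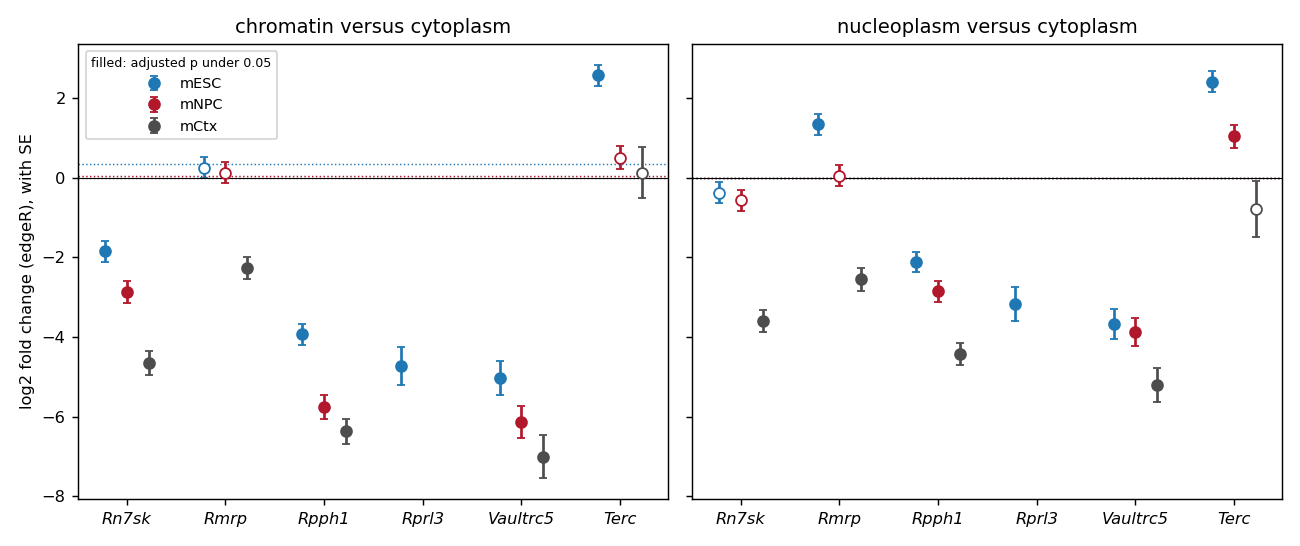
log2 fold change of chromatin and of nucleoplasm against cytoplasm (vertical axis, with SE) for each RNA in mESC, mNPC and mCtx, where filled points passed an adjusted p of 0.05 and dotted lines are medians of all genes. In chromatin against cytoplasm Terc in mESC is highest, at 2.58, and Vaultrc5 in mCtx lowest, at -7.01.

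Between cell types in the same fraction, mNPC against mESC passed for 4 of 6 members in chromatin (76.5% of all genes), 5 of 6 in nucleoplasm (77.2%) and 4 of 6 in cytoplasm (76.0%). In mCtx against mNPC, 5 of 5 passed in chromatin (69.4%), 5 of 5 in nucleoplasm (71.8%) and 4 of 5 in cytoplasm (66.0%), all lower in mCtx. In mCtx against mESC, 5 of 6 passed in chromatin (80.3%) and 6 of 6 in nucleoplasm (82.2%), all lower, and 5 of 6 in cytoplasm (81.6%), 1 higher and 4 lower. The counts against mESC include Rprl3, which had 0 counts in mNPC and mCtx and passed the low-count filter through mESC alone, so that its call was fixed. These comparisons share libraries.

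**Figure D3:**
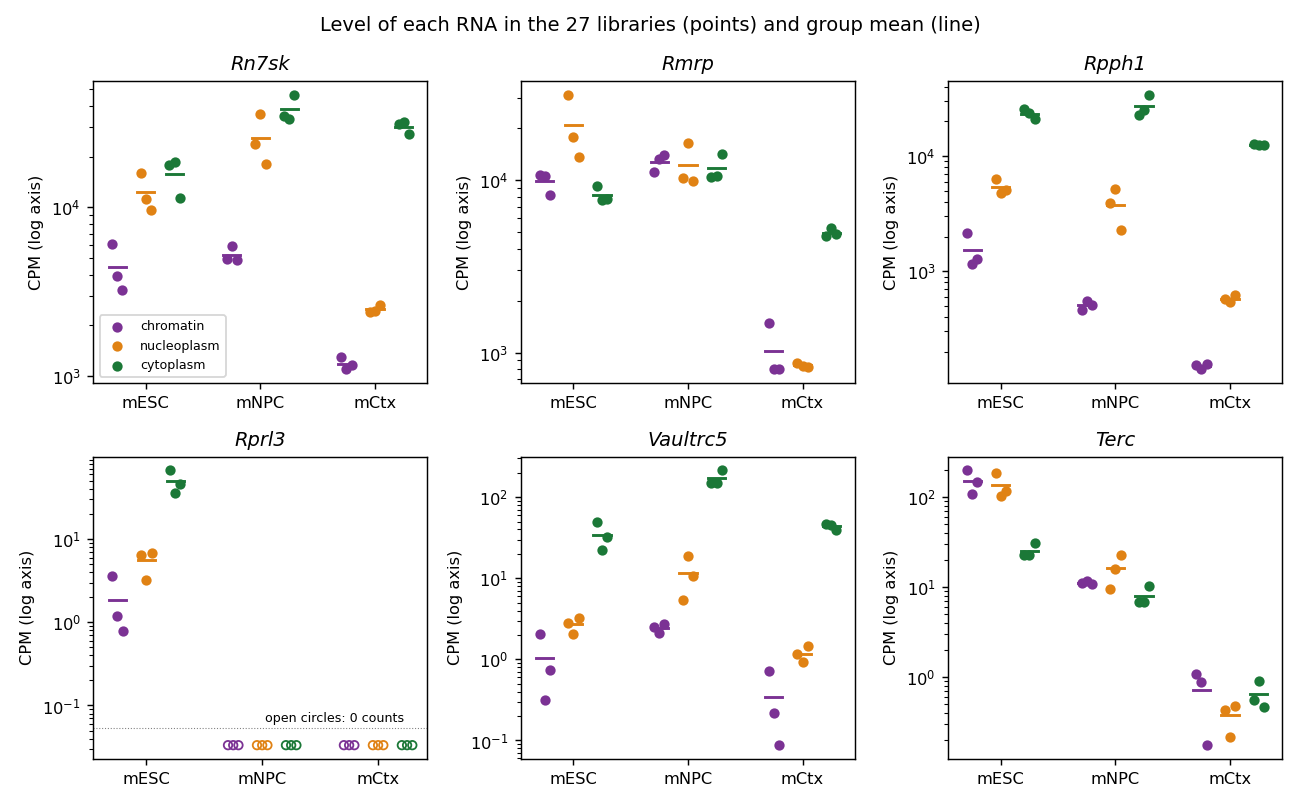
Level of each RNA in CPM (vertical log axis) in the 27 libraries, by cell type and fraction (colour), with lines for group means and open circles for 0 counts. Rn7sk, Rmrp and Rpph1 are lower in chromatin and nucleoplasm of mCtx than of mESC, and Rprl3 has 0 counts outside the 9 mESC libraries.

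Rn7sk had its highest group means in cytoplasm of the neural cell types. Cytoplasm held 34843, 33324 and 46425 CPM in mNPC and 31305, 31978 and 27067 in mCtx, which did not overlap. The difference of mCtx from mNPC did not pass (-0.34 ± 0.26, adjusted p = 0.254). In mESC it held 17725, 18451 and 11349 CPM, below both. Cytoplasmic 7SK was thus higher than in mESC by a log2 fold change ± SE of 1.27 ± 0.26 in mNPC (adjusted p = 1.04e-04) and 0.93 ± 0.26 in mCtx (adjusted p = 0.00216). With limma on log2(TPM + 1) neither passed (0.34, adjusted p = 0.0629 and 0.23, adjusted p = 0.231). In descending order of group means, the libraries of cytoplasm of mCtx, nucleoplasm of mNPC, cytoplasm of mESC and nucleoplasm of mESC overlapped with their neighbours. Nucleoplasm of mNPC, at up to 35899 CPM, also overlapped with cytoplasm of mNPC.

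The nuclear fractions of neurons went the other way. Chromatin held 1298, 1097 and 1167 CPM in mCtx and 6089, 3898 and 3238 in mESC, a difference of -1.89 ± 0.27 (adjusted p = 4.79e-07). Nucleoplasm held 2402, 2424 and 2642 CPM in mCtx, below the mESC libraries at 15998, 11266 and 9585, a difference of -2.30 ± 0.27 (adjusted p = 1.90e-08). In progenitors, chromatin held 4962, 5918 and 4861 CPM, which overlapped with mESC (0.25 ± 0.26, adjusted p = 0.381). Without the mESC libraries numbered 1 this difference passed (0.54, adjusted p = 0.0349), and with TPM it turned to -0.67, adjusted p = 3.70e-04, where the median of all genes moved by -0.52. In nucleoplasm of mNPC Rn7sk was at 23620, 35899 and 18177 CPM, higher than mESC by 1.08 ± 0.26 (adjusted p = 6.26e-04). That direction also turned with TPM (-0.30, adjusted p = 0.0946), where the median of all genes moved by -0.61.

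The balance of Rn7sk, the share of each fraction in its CPM summed over the fractions with the same replicate number, was most cytoplasmic in neurons. These numbers did not pair nucleoplasm of mNPC with its other fractions, or the fractions of mCtx. For each member the single balances and SD there depend on an arbitrary matching of libraries. Cytoplasm held 44.5, 54.9 and 46.95% in the mESC replicates, 54.9, 44.4 and 66.8% in those of mNPC and 89.4, 90.1 and 87.7% in mCtx, where the values lay above all others. The mCtx mean was 89.1 ± 1.25% by counts (SD, n = 3) and 75.2% by TPM. Chromatin was lower than cytoplasm, at -1.85 ± 0.27 in mESC (adjusted p = 7.14e-07), -2.86 ± 0.28 in mNPC (adjusted p = 6.41e-10) and -4.66 ± 0.30 in mCtx (adjusted p = 1.66e-13). Nucleoplasm was lower than cytoplasm in mCtx, at -3.60 ± 0.29 (adjusted p = 4.80e-11) and did not pass in mESC (-0.37 ± 0.26, adjusted p = 0.224) or mNPC (-0.56 ± 0.26, adjusted p = 0.0766). With the replicate number as a block, which pairs the mESC fractions, the mESC value was -0.38, adjusted p = 0.0300. Without the second nucleoplasm library, the mNPC difference passed (-0.87, adjusted p = 0.0110). The part in these differences of nuclear RNA released into the cytoplasm fraction was not tested. Malat1 was more abundant in that fraction of mCtx than in mESC and Neat1 less, as given above, but levels in cytoplasm alone do not measure release. Of 4 listed nuclear RNAs, the 3 counted summed to 5120 to 7030 CPM in cytoplasm and 8594 to 10282 in chromatin of mCtx. In mESC they summed to 1298 to 1601 CPM in cytoplasm and 4832.5 to 8844 in chromatin. In mNPC the sums were 1316 to 1407 and 20805 to 21674 CPM.

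**Figure D4:**
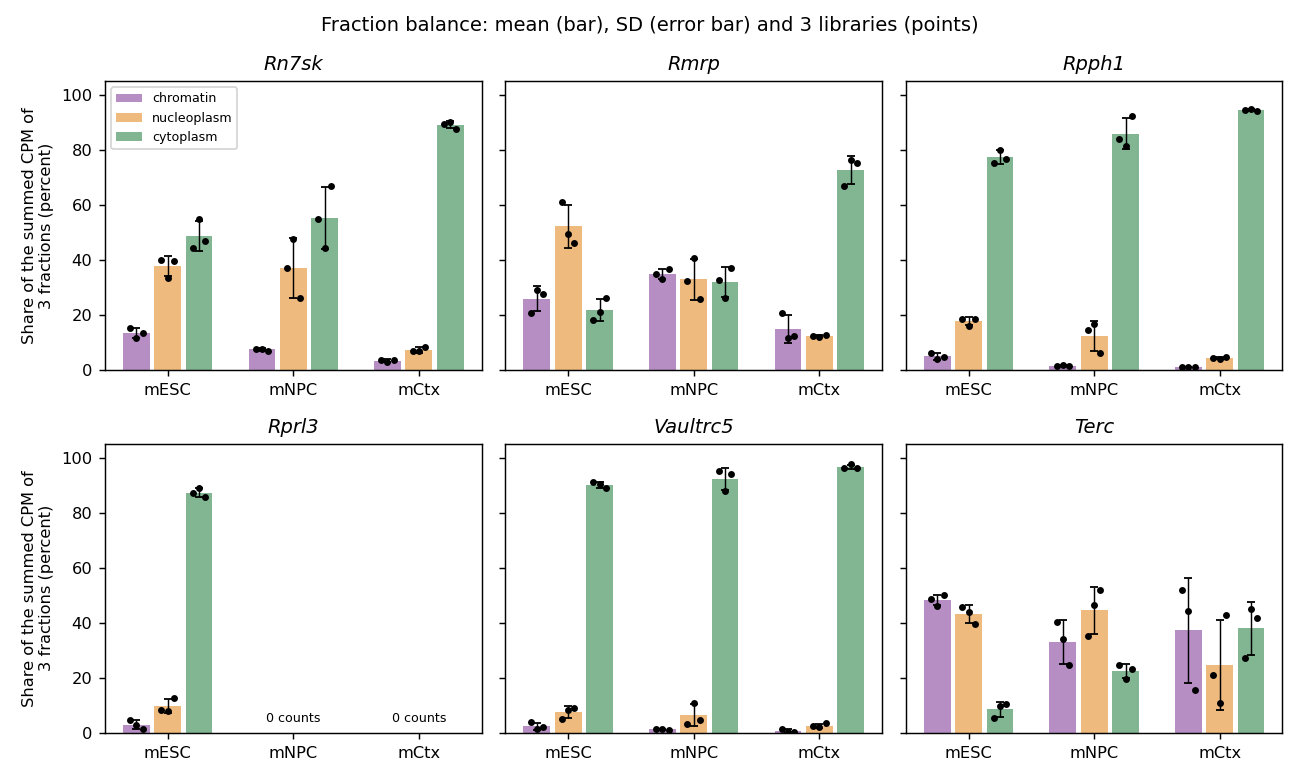
Fraction balance of each RNA: the share of chromatin, nucleoplasm and cytoplasm in its summed CPM (percent, vertical axis) by cell type, with bars for means, error bars for the SD and points for libraries matched by replicate number. Cytoplasm of mCtx holds 89.1 ± 1.25% of Rn7sk and 72.7 ± 5.12% of Rmrp, and cytoplasm of mESC 8.54 ± 2.63% of Terc (mean ± SD, n = 3).

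In cytoplasm most listed mRNAs of the 7SK particle and P-TEFb were lower in the neural cell types than in mESC. Of the 7 genes, cytoplasm had 6 lower and 0 higher in mNPC than in mESC (median -0.57, all genes -0.07) and 5 lower and 0 higher in mCtx (median -1.07, all genes -0.05). Of all genes tested in cytoplasm, 39.4% were lower and 36.5% higher in mNPC, and 41.6% and 40.1% in mCtx. In chromatin the 7 genes were 3 lower and 0 higher in mNPC and 7 lower and 0 higher in mCtx, and in nucleoplasm 4 lower and 1 higher and 5 lower and 0 higher. Larp7, which binds the 3′ end of 7SK, was lower in mCtx, at -1.67 ± 0.14 (adjusted p = 3.02e-11), and Mepce, which caps its 5′ end, at -1.39 ± 0.13 (adjusted p = 1.75e-10). Hexim1, the inhibitor within the particle, was lower, at -1.04 ± 0.26 in mNPC and -2.08 ± 0.27 in mCtx. Cdk9, the kinase of P-TEFb, was at 60.5 ± 8.01 CPM in mESC (SD, n = 3) and lower, at -1.08 ± 0.15 in mNPC and -0.99 ± 0.15 in mCtx. Hexim2 (-0.22 ± 0.20) and Ccnt1 (-0.19 ± 0.11) did not pass in mCtx. The scalings of counts moved the median of all genes by 0.21 at most in cytoplasm of mCtx against mESC, less than each passing change named here.

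Rmrp had its highest group mean in nucleoplasm of mESC, at 31233, 17857 and 13698 CPM, the first value from a library that stands apart. These values overlapped with the values of the 3 mNPC fractions. In mESC chromatin held 10711, 10545 and 8200 CPM and cytoplasm 9265, 7615 and 7723, both below nucleoplasm. Nucleoplasm exceeded cytoplasm by 1.35 ± 0.27 (adjusted p = 9.65e-05) and chromatin by 1.09 ± 0.27 (adjusted p = 8.62e-04), while chromatin and cytoplasm did not differ beyond the threshold (0.26 ± 0.26, adjusted p = 0.374). With total-count scaling the second did not pass (0.53, adjusted p = 0.0798) and the last did (0.72, adjusted p = 0.0170).

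In progenitors the fractions of Rmrp overlapped. Chromatin held 11070, 13332 and 13892 CPM, nucleoplasm 10258, 16424 and 9835 and cytoplasm 10368, 10568 and 14099. The differences were 0.13 ± 0.26, adjusted p = 0.702 for chromatin against cytoplasm, 0.06 ± 0.26, adjusted p = 0.919 for nucleoplasm against cytoplasm and -0.07 ± 0.26, adjusted p = 0.867 for nucleoplasm against chromatin. With TPM the first (1.09, adjusted p = 2.20e-05) and the last (-1.33, adjusted p = 1.85e-06) passed. Cytoplasm held 32.1 ± 5.56% of the summed CPM in mNPC and 21.8 ± 4.03% in mESC (SD, n = 3).

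In neurons Rmrp was lower and, by counts, mostly in the cytoplasm fraction. The part of released nuclear RNA in that fraction was not tested. Cytoplasm held 4749, 5244 and 4895 CPM, chromatin 1482, 797.9 and 799.5 and nucleoplasm 875.2, 839.6 and 824.2, so that cytoplasm lay above the nuclear fractions, which overlapped. Cytoplasm held 72.7 ± 5.12% of the sum by counts (SD, n = 3) and 44.8% by TPM, where chromatin against cytoplasm (-2.27 ± 0.28 by counts) did not pass (-0.28, adjusted p = 0.152). Against mESC, Rmrp was lower, at -3.26 ± 0.29 in chromatin (adjusted p = 1.03e-10), -4.63 ± 0.31 in nucleoplasm (adjusted p = 2.36e-13) and -0.72 ± 0.27 in cytoplasm (adjusted p = 0.0148). The last was lost without the first mESC cytoplasm library (-0.61, adjusted p = 0.0576) and with total counts (-0.49, adjusted p = 0.0945). In mNPC against mESC, nucleoplasm was lower, at -0.78 ± 0.27 (adjusted p = 0.00991), a call lost without the first mESC nucleoplasm library (-0.37, adjusted p = 0.177) and without mNPC nucleoplasm replicate 3 (-0.65, adjusted p = 0.0558). Chromatin (0.38 ± 0.26, adjusted p = 0.195) and cytoplasm (0.51 ± 0.27, adjusted p = 0.0833) did not pass. The chromatin value turned with TPM (-0.75, adjusted p = 9.15e-04), and the cytoplasm value passed without the mESC libraries numbered 1 (0.61, adjusted p = 0.0210). The TPM table holds a second Rmrp ID that the count table lacks, at 7247 ± 522.3 TPM in cytoplasm of mESC beside 32389 ± 1288 for the first.

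Rpph1 was mostly in the cytoplasm fraction in all 3 cell types. The part of released nuclear RNA in that fraction was not tested. Cytoplasm held 25419, 23800 and 20962 CPM in mESC, 22742, 25172 and 34058 in progenitors and 12665, 12436 and 12443 in mCtx. In mESC nucleoplasm held 6279, 4760 and 5061 CPM and chromatin 2161, 1164 and 1274, with no overlap between fractions. The cytoplasmic share was 77.3 ± 2.54% in mESC (SD, n = 3), 85.9 ± 5.75% in mNPC and 94.5 ± 0.352% in mCtx. By TPM it was 75.6%, 87.5% and 86.8%, with no rise from mNPC to mCtx. Chromatin was lower than cytoplasm, at -3.93 ± 0.27 in mESC (adjusted p = 6.65e-13), -5.75 ± 0.29 in mNPC (adjusted p = 1.79e-15) and -6.37 ± 0.30 in mCtx (adjusted p = 3.36e-16).

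Chromatin held 458.1, 550.4 and 510.2 CPM of Rpph1 in mNPC and 154.8, 140.4 and 157.3 in mCtx, each apart from mESC and from the other. The differences from mESC were -1.60 ± 0.25 (adjusted p = 2.00e-06) and -3.35 ± 0.26 (adjusted p = 1.00e-11). In nucleoplasm mCtx, at 570.5, 540.6 and 620.4 CPM, was lower than mESC, at -3.22 ± 0.26 (adjusted p = 1.45e-11). Nucleoplasm of mNPC, at 3920, 5154 and 2274 CPM, overlapped with mESC and did not pass (-0.50 ± 0.24, adjusted p = 0.0585), but did with DESeq2 (-0.56, adjusted p = 0.0180), with total counts (-0.57, adjusted p = 0.0272) and without the second mNPC library (-0.79, adjusted p = 0.00768). In cytoplasm mCtx was lower than mESC, at -0.90 ± 0.24 (adjusted p = 0.00137), which turned with TPM (0.20, adjusted p = 0.442), where the median of all genes moved by -0.30. Cytoplasm of mNPC overlapped with mESC (0.22 ± 0.24, adjusted p = 0.401) and was higher with TPM (0.97, adjusted p = 1.22e-04).

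Per length, the RNAs of RNase MRP and RNase P stood in different ratios in different fractions. In cytoplasm the ratio of CPM per kilobase of Rmrp to Rpph1 was 0.413 ± 0.0317 in mESC (SD, n = 3), 0.506 ± 0.0267 in mNPC and 0.467 ± 0.0277 in mCtx. In chromatin it was 8.03 ± 2.45, 29.7 ± 2.06 and 7.98 ± 2.87, with the mNPC libraries above the others by this measure. Nucleoplasm lay between, at 4.49 ± 1.34, 3.98 ± 1.02 and 1.73 ± 0.146. The deposited TPM did not set mNPC chromatin apart from mESC, as the library ratios overlapped. Mean TPM of Rmrp was 90327 beside 2257 of Rpph1 for mESC chromatin, and 54114 beside 1380 for mNPC chromatin. For mESC cytoplasm Rmrp exceeded Rpph1 by TPM (32389 against 21357), whereas cytoplasm of the neural cell types kept Rmrp lower. These ratios within libraries were not tested.

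Rprl3 was counted in mESC libraries and had 0 counts in the 18 others, where a count of 0 allows up to 3. Cytoplasm of mESC held 1244, 600 and 761 counts (66.99, 35.7 and 46.1 CPM), nucleoplasm 116, 52 and 97 counts and chromatin 73, 23 and 15. Against a floor of 3 counts per library, the cytoplasm level in mESC was at least 278-fold higher than in mNPC and at least 247-fold higher than in mCtx. In nucleoplasm the bounds were 23.3-fold and 26.1-fold and in chromatin 10.1-fold and 7.38-fold. No test of these differences is given, because Rprl3 passed the low-count filter through its mESC libraries alone. The deposited TPM of Rprl3 was 208.7 ± 65.9 in cytoplasm of mESC (SD, n = 3) and at most 0.197 as a group mean in the other cell types.

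Rprl3 was mostly cytoplasmic in mESC, with 87.2 ± 1.58% of its summed CPM in cytoplasm (SD, n = 3) and 76.6% by TPM. Chromatin was lower than cytoplasm, at -4.73 ± 0.47 (adjusted p = 3.49e-07). Nucleoplasm exceeded chromatin by 1.57 ± 0.46 (adjusted p = 0.00826), a call lost with DESeq2 (1.57, adjusted p = 0.0662) and with total counts (1.00, adjusted p = 0.0640). Per kilobase it had 0.165% to 0.290% of the counts of Rpph1 in the mESC cytoplasm libraries. How reads that match more than 1 gene were counted is not given in the sources used here, and the part of reads shared between relatives was not tested. Cytoplasm of mNPC and mCtx had 158988 to 473039 counts of Rpph1 in a library and 0 of Rprl3. Rprl1 had 0 counts in all libraries, and Rprl2 was above 0 in chromatin of mCtx, at 0.108 ± 0.0335 CPM (SD, n = 3), and at 0 elsewhere.

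Of 11 protein genes of RNase P and RNase MRP, cytoplasm had 5 lower and 2 higher in mNPC than in mESC (median -0.08, all genes -0.07) and 8 lower and 1 higher in mCtx (median -0.95, all genes -0.05). Of all genes 39.4% were lower and 36.5% higher in mNPC, where the median of the list is near that of all genes, and 41.6% were lower in mCtx. Pop1, the largest protein of both enzymes, was lower, at -2.80 ± 0.28 in mNPC (adjusted p = 1.43e-09) and -2.54 ± 0.28 in mCtx (adjusted p = 5.53e-09). Rpp40 was lower, at -3.71 ± 0.23 and -3.63 ± 0.23. Rpp25, which binds the RNA, was at 40.2, 32.95 and 40.1 CPM in mESC, at 3.38, 2.45 and 1.96 in mCtx and at 0 counts in the 9 mNPC libraries. Rpp30 did not pass in mNPC (0.22 ± 0.13, adjusted p = 0.120).

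Vaultrc5 (143 bases, chr18:36801866-36802008, plus strand) had the highest mean cytoplasmic share of the members in each cell type. The annotated RNA is shorter than the 200 nucleotides above which RNA was selected, RefSeq gives the gene 345 bases, and the part of that selection in its level was not tested. Cytoplasm held 49.1, 22.1 and 31.9 CPM in mESC, 150.1, 150.9 and 213.4 in progenitors and 46.5, 45.3 and 39.6 in mCtx. The mNPC libraries lay above the others, and mESC and mCtx overlapped. Cytoplasm held 90.05 ± 1.09% of the summed CPM in mESC (SD, n = 3), 92.3 ± 3.93% in mNPC and 96.6 ± 0.770% in mCtx. By TPM the shares were 88.1%, 93.4% and 91.5%. Nucleoplasm exceeded chromatin in mNPC by 2.27 ± 0.40 (adjusted p = 1.51e-05). In mESC that difference (1.36 ± 0.50, adjusted p = 0.0191) was lost without the second (0.94, adjusted p = 0.108) or the third (1.17, adjusted p = 0.0682) chromatin library, without the third nucleoplasm library (1.22, adjusted p = 0.0617) and with total counts (0.80, adjusted p = 0.161). In mCtx it did not pass (1.80 ± 0.82, adjusted p = 0.0640), but did without the first chromatin library (2.84, adjusted p = 0.0309).

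Vaultrc5 was highest in progenitors. Cytoplasm of mNPC exceeded mESC by 2.32 ± 0.32 (adjusted p = 3.20e-07) and nucleoplasm did by 2.12 ± 0.39 (adjusted p = 2.81e-05), the latter not with TPM (0.55, adjusted p = 0.191). In chromatin, with 42, 6 and 14 counts in mESC and 42, 39 and 39 in mNPC, the difference of 1.20 ± 0.50 passed (adjusted p = 0.0330). It was lost without the second (0.78, adjusted p = 0.165) or the third (1.01, adjusted p = 0.104) mESC library, without the first (1.19, adjusted p = 0.0621) or the third (1.14, adjusted p = 0.0712) mNPC library, and with total counts (1.02, adjusted p = 0.0718). In mCtx against mNPC it was lower, at -1.97 ± 0.32 in cytoplasm (adjusted p = 4.37e-06), -3.31 ± 0.45 in nucleoplasm (adjusted p = 3.31e-07) and -2.84 ± 0.71 in chromatin (adjusted p = 9.44e-04).

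Against mESC, cytoplasmic Vaultrc5 of mCtx did not pass (0.35 ± 0.31, adjusted p = 0.301), but was higher without the mESC libraries numbered 1 (0.71, adjusted p = 0.00824). Nucleoplasm of mCtx, with 16, 13 and 21 counts, was lower, at -1.19 ± 0.52 (adjusted p = 0.0381). That call was lost without the first (-1.16, adjusted p = 0.0741) or the third (-1.05, adjusted p = 0.100) mESC library and without the first (-1.17, adjusted p = 0.0766) or second (-1.04, adjusted p = 0.108) mCtx library. Chromatin of mCtx, with 8, 3 and 1 counts, did not pass (-1.64 ± 0.80, adjusted p = 0.0645), but did without its first library (-2.67, adjusted p = 0.0281) or the second of mESC (-2.06, adjusted p = 0.0172).

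Of the vault protein mRNAs, those of Mvp and Tep1 were lower in mNPC, where the vault RNA was higher. Mvp, the major vault protein that builds the shell, was at 84.01, 113.1 and 117.1 CPM in cytoplasm of mESC and 4.21, 4.75 and 5.18 in mNPC, lower, at -4.48 ± 0.19 (adjusted p = 5.41e-17), and at -5.19 ± 0.21 in mCtx (adjusted p = 5.42e-18). Tep1, a protein of vaults and telomerase, was lower, at -3.73 ± 0.23 and -5.65 ± 0.28. Parp4, the vault poly(ADP-ribose) polymerase, did not pass in mNPC (0.18 ± 0.21, adjusted p = 0.436) and was lower in mCtx, at -3.56 ± 0.28 (adjusted p = 6.47e-12). The 3 listed vault genes were thus 2 lower and 0 higher in mNPC and 3 lower and 0 higher in mCtx (medians -3.73 and -5.19, all genes -0.07 and -0.05).

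Terc was mostly nuclear in stem cells. Chromatin held 198.5, 107.5 and 148.7 CPM, nucleoplasm 187, 102.7 and 118 and cytoplasm 22.5, 22.7 and 30.8. The nuclear fractions overlapped and lay above cytoplasm. Chromatin exceeded cytoplasm by 2.58 ± 0.27 (adjusted p = 2.03e-09) and nucleoplasm did by 2.42 ± 0.27 (adjusted p = 1.42e-08), and cytoplasm held 8.54 ± 2.63% of the summed CPM (SD, n = 3). Nucleoplasm and chromatin did not differ beyond the threshold (-0.16 ± 0.25, adjusted p = 0.592), but did with total counts (-0.72, adjusted p = 0.0144).

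In progenitors Terc was low. Chromatin held 11.1, 11.8 and 10.8 CPM, nucleoplasm 9.65, 16.04 and 22.9 and cytoplasm 6.78, 6.85 and 10.3, so that chromatin lay just above cytoplasm and nucleoplasm overlapped with both. Nucleoplasm exceeded cytoplasm by 1.04 ± 0.28 (adjusted p = 0.00313), a call lost without the third nucleoplasm library (0.70, adjusted p = 0.0571). Chromatin against cytoplasm did not pass (0.51 ± 0.29, adjusted p = 0.119), but did with the replicate number as a block (0.53, adjusted p = 0.0201), which pairs this pair of fractions, and with total counts (0.69, adjusted p = 0.0395). Nucleoplasm against chromatin did not pass (0.54 ± 0.28, adjusted p = 0.0933), did without the first nucleoplasm library (0.80, adjusted p = 0.0140) and turned with limma on log2(TPM + 1) (-0.73, adjusted p = 0.0343).

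Terc fell from mESC to mNPC and again to mCtx in each fraction. In mNPC against mESC it was lower, at -3.75 ± 0.29 in chromatin (adjusted p = 6.84e-12), -3.06 ± 0.28 in nucleoplasm (adjusted p = 1.85e-10) and -1.68 ± 0.28 in cytoplasm (adjusted p = 5.93e-06). The mCtx libraries held 12, 12 and 2 counts in chromatin, 6, 3 and 7 in the nucleoplasm libraries and 9, 15 and 6 in cytoplasm. Against mESC these were lower, at -7.71 ± 0.40 (adjusted p = 1.71e-15), -8.46 ± 0.42 (adjusted p = 6.21e-16) and -5.25 ± 0.39 (adjusted p = 2.49e-12). Against mNPC they were lower, at -3.96 ± 0.42 in chromatin, -5.40 ± 0.45 in nucleoplasm and -3.57 ± 0.42 in cytoplasm. Between fractions of mCtx no difference was detectable at these counts (0.13 ± 0.64, adjusted p = 0.889 for chromatin against cytoplasm).

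Most protein genes of telomerase were lower in the neural cell types than in mESC. Of the 11 listed, cytoplasm had 11 lower and 0 higher in mNPC (median -2.27, all genes -0.07) and 10 lower and 0 higher in mCtx (median -2.44, all genes -0.05) than in mESC. Of all genes, 39.4% were lower in mNPC and 41.6% in mCtx. In chromatin the counts were 11 lower and 0 higher in mNPC and 11 lower and 0 higher in mCtx, beside 42.7% and 47.4% of all genes lower. From mNPC to mCtx the list had no common direction, with 3 lower and 4 higher in chromatin (median 0.12), 4 lower and 5 higher in nucleoplasm (0.34) and 6 lower and 2 higher in cytoplasm (-0.35). Tert, the reverse transcriptase, was at 19.01, 20.04 and 19.98 CPM in cytoplasm of mESC, 0.999, 1.29 and 0.864 in progenitors and 1.94, 2.45 and 1.33 in mCtx, lower, at -4.20 ± 0.21 (adjusted p = 1.49e-15) and -3.34 ± 0.20 (adjusted p = 2.55e-14). Dkc1, which encodes dyskerin, a protein that stabilises the RNA, was lower, at -3.34 ± 0.18 and -4.13 ± 0.19, and Naf1, an assembly factor, at -3.13 ± 0.24 and -2.79 ± 0.23.

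**Figure D5:**
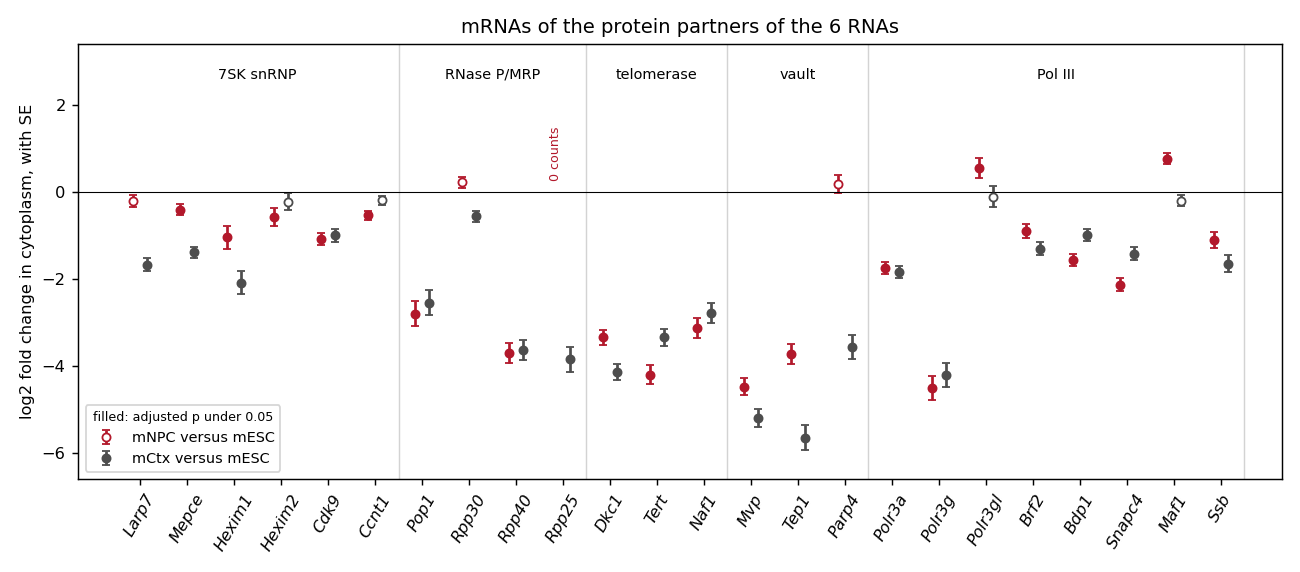
log2 fold change (vertical axis, with SE) in cytoplasm of mNPC and mCtx against mESC for mRNAs of proteins that bind or make the RNAs, grouped by particle, where filled points passed an adjusted p of 0.05. Mvp lies at -4.48 and -5.19, Tert at -4.20 and -3.34, and Polr3gl at 0.55 and -0.11.

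Of the enzyme that makes most of these RNAs, the alternative subunits Polr3g and Polr3gl differed in pattern. Polr3g was at 63.2, 110.9 and 131.7 CPM in cytoplasm of mESC, 3.94, 4.91 and 4.68 in progenitors and 6.002, 5.38 and 5.09 in mCtx, lower, at -4.50 ± 0.27 (adjusted p = 5.32e-14) and -4.21 ± 0.27 (adjusted p = 9.28e-14). Polr3gl was higher in mNPC by 0.55 ± 0.23 (adjusted p = 0.0352) and did not pass in mCtx (-0.11 ± 0.24, adjusted p = 0.673). Of the 13 subunit genes, cytoplasm had 6 lower and 3 higher in mNPC and 8 lower and 2 higher in mCtx than in mESC (medians -0.04 and -0.73, all genes -0.07 and -0.05). Of 12 promoter and regulatory factors, it had 7 lower and 5 higher in mNPC and 7 lower and 2 higher in mCtx (medians -0.78 and -0.54). Of all genes 39.4% were lower and 36.5% higher in mNPC, and 41.6% and 40.1% in mCtx. Brf2, which serves the external promoters of Rn7sk, Rmrp and Rpph1, was lower, at -0.90 ± 0.15 and -1.30 ± 0.15, and Snapc4, of the complex that binds them, at -2.13 ± 0.15 and -1.42 ± 0.15. Maf1, a repressor of polymerase III, was higher in mNPC by 0.77 ± 0.12 (adjusted p = 3.93e-06). Ssb, the La protein that binds the ends of new polymerase III transcripts, was lower, at -1.11 ± 0.19 and -1.65 ± 0.20.

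The ratios between fractions were then compared between cell types, which tests a shift of balance directly. The ratio of chromatin to cytoplasm passed for 3 of 5 members in mNPC against mESC (40.2% of all genes), 2 of 5 in mCtx against mNPC (34.0%) and 4 of 5 in mCtx against mESC (50.2%). The ratio of nucleoplasm to cytoplasm passed for 2 of 5 (24.2%), 3 of 5 (37.9%) and 5 of 5 (46.1%). All 19 passing differences were negative, with relatively more in cytoplasm in the cell type named first. For chromatin in mCtx against mESC, 32.5% of all genes were lower and 17.7% higher, and for nucleoplasm 23.1% and 23%. These ratio comparisons share libraries. The members' median for mCtx against mESC was -2.46 for chromatin and -3.21 for nucleoplasm, beside medians of all genes of -0.42 and -0.03. With total counts the first of these all-gene medians moved by -1.01, and with log2(TPM + 1) by 1.02. For Rn7sk the nucleoplasm ratio differed by -3.23 ± 0.38 in mCtx against mESC (adjusted p = 6.85e-08) and for Rmrp by -3.90 ± 0.39 (adjusted p = 4.76e-09). Rprl3 has no such ratio, being at 0 in mNPC and mCtx.

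The genes most like each member were those with the highest Pearson correlation of log2 mean CPM over the 9 groups, among 10920 genes. The points share libraries and scaling, and the value is a description. For Rn7sk they were Tmem186 (r = 0.976), Ost4 (0.966) and Anapc13 (0.964), and for Rmrp Snora57 (0.958), Tmem230 (0.957) and Gm25360 (0.952). For Rpph1 they were S100a10 (0.993), Rex1bd (0.991) and Rps14 (0.990), and for Vaultrc5 Acp1 (0.984), 2310011J03Rik (0.982) and Bsdc1 (0.979). For Rprl3 they were Hist1h2ba (0.993), Smn1 (0.990) and Hist1h2aa (0.990), and for Terc Enpp3 (0.986), Ddias (0.983) and Abcg2 (0.979). As Rprl3 had 0 counts in mNPC and mCtx, its correlations rest on its mESC groups against a floor elsewhere. Among the members, Rn7sk and Rpph1 were at 0.913, Rpph1 and Vaultrc5 at 0.896, and Rmrp and Terc at 0.796.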

How the data were processed

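Gene counts of 27 libraries were deposited as raw counts per gene, whole numbers not normalized by the authors. The length given for each of the 37332 genes equals its full span in the genome. The counts may thus hold reads of introns, whose part in the shares, CPM and comparisons was not tested. The deposited chromatin columns are whole-number counts too, and the rounding meant for estimated counts leaves them as they are. TPM values were deposited by the authors in a second table, normalized within each library. The submitters' processing notes name STAR, kallisto, featureCounts and the mm10 build. Strand setting, treatment of reads with several matches and tool versions are not given in the sources used here. Per the labels' protocols, RNA over 200 nt was ribosome-depleted and made into stranded libraries.

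Groups are cell type by fraction, with 3 biological replicates each, as the labels give them. Ensembl IDs were named from GENCODE vM21 (35449 of 37332). Counts were tested with edgeR 4.0.16 (trimmed-mean scaling, its low-count filter, quasi-likelihood test, 1 fit over all groups with 18 residual degrees of freedom) in R 4.3.3, over 18249 genes with Benjamini-Hochberg adjustment and a threshold of 0.05. The method was tested on simulated data. CPM use the scaled library size. Alternatives were median-ratio size factors, total counts, DESeq2 1.42.0, no filter, fits of the compared groups alone, limma 3.58.1 on log2(TPM + 1) and log2(TPM + 0.1), a replicate block and each library left out. TPM folds on these scales understate changes of low values.

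Same-numbered fractions deviated together in mESC (correlations 0.424 to 0.779 over 10921 genes) and in chromatin and cytoplasm of mNPC (0.208 to 0.393), by the rule that each exceed 0.1, and not in the other comparisons. The members and gene lists were chosen with earlier results of these data known. Named genes are the members, listed partner genes of each particle, and the 3 genes with the highest correlation to each member among those with a mean of at least 10 CPM (pseudocount 0.5). No promoter sequence of a member was used here.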

Additional observations from a re-analysis of the deposited data

Results flagged for a closer look

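The change of a fraction ratio between cell types was tested directly, as an interaction term in edgeR's quasi-likelihood fit, and passed the threshold 19 times over the 5 members that have counts in all cell types. Of all genes, 24.2% to 50.2% passed in these comparisons, which share libraries. Each value is the log2 difference of the ratio, negative where relatively more lay in cytoplasm in the cell type named first. The chromatin-to-cytoplasm ratio in mNPC versus mESC differed by -1.82 for Rpph1 (adjusted p = 1.08e-04), -2.07 for Terc (adjusted p = 9.74e-05) and -1.02 for Rn7sk (adjusted p = 0.0283). The chromatin-to-cytoplasm ratio in mCtx versus mNPC differed by -2.40 for Rmrp (adjusted p = 1.96e-05) and -1.80 for Rn7sk (adjusted p = 4.11e-04). The chromatin-to-cytoplasm ratio in mCtx versus mESC differed by -2.44 for Rpph1 (adjusted p = 1.52e-06), -2.46 for Terc (adjusted p = 0.00498), -2.53 for Rmrp (adjusted p = 3.58e-06) and -2.82 for Rn7sk (adjusted p = 5.86e-07). The nucleoplasm-to-cytoplasm ratio in mNPC versus mESC differed by -1.38 for Terc (adjusted p = 0.00888) and -1.29 for Rmrp (adjusted p = 0.0122). The nucleoplasm-to-cytoplasm ratio in mCtx versus mNPC differed by -1.59 for Rpph1 (adjusted p = 4.89e-04), -2.61 for Rmrp (adjusted p = 3.64e-06) and -3.04 for Rn7sk (adjusted p = 3.00e-07). The nucleoplasm-to-cytoplasm ratio in mCtx versus mESC differed by -2.31 for Rpph1 (adjusted p = 3.08e-06), -1.54 for Vaultrc5 (adjusted p = 0.0398), -3.21 for Terc (adjusted p = 9.63e-04), -3.90 for Rmrp (adjusted p = 4.76e-09) and -3.23 for Rn7sk (adjusted p = 6.85e-08).

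The Rn7sk chromatin value in mNPC against mESC was lost when any of 5 single libraries was left out, the weakest being -0.72, adjusted p = 0.107 without the first mESC chromatin library. The Rmrp nucleoplasm value in mNPC against mESC was lost without the first mESC nucleoplasm library (-0.88, adjusted p = 0.0564). The Vaultrc5 nucleoplasm value in mCtx against mESC was lost in 9 of the fits with a library left out and with DESeq2 (-1.45, adjusted p = 0.0736), and the Rpph1 value in mCtx against mNPC with TPM (-0.01, adjusted p = 0.998). The Terc values that involve mCtx rest on 2 to 15 counts in a mCtx library. By TPM, chromatin held 66.5% of Terc in mCtx and 62.5% in mESC, and cytoplasm 11.5% and 5.83%. Further causes were not tested.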

How the results depend on the processing

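The number of members past the threshold stayed within 1.5 times its value in 24 of 24 comparisons with median-ratio size factors, DESeq2, the replicate block and scaling without mitochondrial and member genes, and in 177 fits with a library left out, while 3 moved. It was 3 with total counts in nucleoplasm against chromatin of mESC, against 5 in the edgeR fit of all libraries with trimmed-mean scaling. With limma on log2(TPM + 1) and log2(TPM + 0.1) it was 5 for chromatin against cytoplasm in mNPC and nucleoplasm against chromatin in mCtx, and 3 for mNPC against mESC in nucleoplasm and mCtx against mESC in cytoplasm. With log2(TPM + 1) alone it was 5 for nucleoplasm against chromatin in mNPC and 4 for the nucleoplasm-to-cytoplasm ratio of mNPC against mESC. That ratio gave 1 to 3 with a library left out. In mCtx against mNPC it gave 5 without a filter or with the compared groups alone, and 3 to 5 with a library left out. The share of all members in nucleoplasm of mESC was 4.95% without mitochondrial genes. Fraction balances depended on the measure. Chromatin of mCtx held 14.9% of Rmrp by scaled counts and 36.85% by TPM. The cause of these changes was not tested.

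Directions turned with TPM at both pseudocounts for Rn7sk in mNPC against mESC, in chromatin (-0.67) and nucleoplasm (-0.30), for Rmrp in chromatin (-0.75) and for Rpph1 in mCtx against mESC in cytoplasm (0.20). With log2(TPM + 1) Terc turned in nucleoplasm against chromatin of mNPC (-0.73). Of single-member tests with a library left out, 906 kept direction and side of the threshold, 30 lost the call and 18 gained it. The replicate block kept 120 and gained 9, among them, in comparisons whose numbers do not pair the samples, Rn7sk for nucleoplasm against cytoplasm in mNPC (-0.60, adjusted p = 0.00125) and Vaultrc5 for nucleoplasm against chromatin in mCtx (1.81, adjusted p = 0.0346). It changed no count of members by over 1.5 times. Leaving out the mESC libraries numbered 1, an alternative chosen after seeing the data, kept 70, gained 3 and lost 1. Depth limits Vaultrc5 in chromatin and Terc in mCtx, with 1 to 42 and 2 to 15 counts a library.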

Other observations

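Other small RNAs of RNA polymerase III were also counted. Rny3, a Y RNA, was at 2.21, 0.952 and 1.39 CPM in cytoplasm of mESC, 8.46, 6.85 and 9.50 in progenitors and 3.88, 4.66 and 3.83 in mCtx, with no overlap between the cell types. Its levels in chromatin and nucleoplasm lay below those in cytoplasm in mNPC and mCtx, at 1.22 ± 0.481 and 1.76 ± 0.345 CPM (SD, n = 3) in mNPC. Rny1 stayed below 1 CPM in all libraries. The part in these levels of the selection of RNA over 200 nucleotides was not tested. Rn7s1 and Rn7s2, 7SL RNAs of the signal recognition particle, were found in the TPM table and not in the count table, with equal values whose reads cannot be told apart. Rn7s1 was at 158339 ± 2054 TPM in cytoplasm of mESC (SD, n = 3), 228661 ± 11141 in mNPC and 224723 ± 15383 in mCtx, and at 24610 ± 10435, 10283 ± 2079 and 12068 ± 1365 in chromatin.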
